A study of Mus musculus with 9 samples.

Results

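The clustered protocadherins are cell-surface adhesion proteins encoded by 3 neighbouring gene arrays, named alpha, beta and gamma. The members described here are the 52 gene symbols, of 24571 analysed, that have the form Pcdha, Pcdhb or Pcdhg followed by a number, or by a, b or c and a number. There were 10 alpha, 21 beta and 21 gamma members. In the GENCODE annotation of mm10, the genome build of the files, the arrays follow one another on the plus strand of mouse chromosome 18. The alpha array spans chr18:36930184-37187661, the beta array chr18:37264938-37524479 and the gamma array chr18:37661793-37841873. The annotated members Pcdha6, Pcdha8, Pcdha12, Pcdhb1 and Pcdhgc4 were not analysed here.

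In the alpha and gamma arrays each member has its own large first exon with its own promoter, which encodes the extracellular cadherin repeats, the membrane span and part of the cytoplasmic tail. That variable exon is spliced to constant exons at the end of the array, which all members of the array share. Beta genes have no such constant exons. Single neurons choose a few of these promoters, and the matching of the resulting proteins between cells underlies the self-recognition and self-avoidance of neuronal branches. CTCF, a zinc-finger protein that stops cohesin as it extrudes DNA loops, binds most of these promoters and the enhancers of the arrays, and the choice of promoter depends on the loops between them. The families are best known in the nervous system. The gamma array is conventionally divided into A-type and B-type genes, which alternate along the array, and C-type genes, which lie at its end and are less dependent on the choice of promoter in neurons.

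RNA was sequenced from E18.5 hearts of C57BL/6N mouse embryos late in gestation. The mice were of a line with the R567W substitution in Ctcf, introduced by CRISPR/Cas9 editing. The 3 groups were wild type, heterozygous (Ctcf +/R567W) and homozygous (Ctcf R567W/R567W), with 3 libraries each. In heterozygous and homozygous embryos the substitution is in the germ line and so was present in every cell of the heart. The libraries were made from messenger RNA captured on beads. The study's methods say that heart samples were frozen in a tube each and, of its data in general, that replicates were independent. They do not say whether each of these libraries came from 1 heart, or from which litters, so the p-values measure the spread between these libraries, which may be partly technical. Values are TPM, a level that is corrected for transcript length and scaled to the same total in every library, and so can be compared between genes. The table held no read counts, so the depth behind each value is unknown and no counting interval can be given.

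Several libraries differed in ways that genotype did not explain. The summed level of 11 cardiomyocyte markers was 23570 to 34220 TPM in the 9 libraries, so the defining genes of heart muscle were abundant in each. The summed level of 15 thymocyte markers was 790 TPM in homozygous replicate 3 and 18.1 to 33.0 TPM in the others, and 6 thymic epithelium markers summed to 226 TPM there against 4.88 to 15.9 TPM. Wild-type replicate 1 and heterozygous replicate 1 held airway and lung markers (sums of 2628 and 1109 TPM), and the latter also liver markers (4171 TPM). Xist, the transcript of the inactive X chromosome, was above 1 TPM in wild-type replicate 1, in the 3 heterozygous libraries and in homozygous replicate 1, and at or below 0.05 TPM elsewhere. In addition, TPM values of most genes were shifted upwards in the homozygous libraries. The median log2 change of the 13682 genes that averaged 1 TPM or more was 0.23 in homozygous against wild-type hearts, 0.08 in homozygous against heterozygous hearts and 0.15 in heterozygous against wild-type hearts. Changes are best read against these shifts.

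The 3 arrays were read out at very different levels in the embryonic heart. The gamma array was clearly present, the beta array was found at a fraction of a TPM per gene, and the alpha array was near 0. Of the gamma members 16 of 21 reached a mean of 1 TPM over the 9 libraries, and all 21 were above 0 in all 9. No beta member and no alpha member reached that mean. The highest single value was 44.36 TPM in the gamma array (Pcdhgc3), 1.2 TPM in the beta array (Pcdhb17) and 0.37 TPM in the alpha array (Pcdhac2). In wild-type hearts the members summed to 76.6 TPM ± 10.2 (SD, n = 3) for gamma, 6.47 TPM ± 0.796 for beta and 0.305 TPM ± 0.0841 for alpha. A read in an exon shared within an array counts towards the sum of that array whichever analysed member it was given to. Its weight in TPM still depends on the transcript length of that member. Reads given to members not analysed or to other gene models over the array are left out of the sum. Single gamma and alpha values depend more directly on how such reads were divided, because the annotated transcripts share much of their sequence. The median share of 31-base words that a member had in common with other members was 61.7% for alpha, 46.1% for gamma and 12.0% for beta. The levels are those of whole hearts, in which fewer cells of a type and less RNA per cell cannot be told apart.

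Pcdhgc3, a C-type gene, was the most abundant member in all 3 groups, followed in all 3 groups by the A-type gene Pcdhga8. Pcdhgc3 (chr18:37806364-37841873) stood at 24.34, 30.47 and 34.54 TPM (wild type), 33.21, 32.71 and 35.88 TPM (heterozygous) and 40.64, 44.36 and 25.01 TPM (homozygous). The groups overlapped. Pcdhga8 stood at 10.86, 8.385 and 9.785 TPM (wild type), 10.81, 8.875 and 11.435 TPM (heterozygous) and 9.595, 9.745 and 6.355 TPM (homozygous), and again the groups overlapped. Values of Pcdhga8 and Pcdhgb8 (and Pcdha11 in the alpha array) carry 3 decimals, as do 42 rows of the table in all, while other rows carry at most 2 decimals. How such rows were made is not given in the sources used here.

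**Figure D1:**
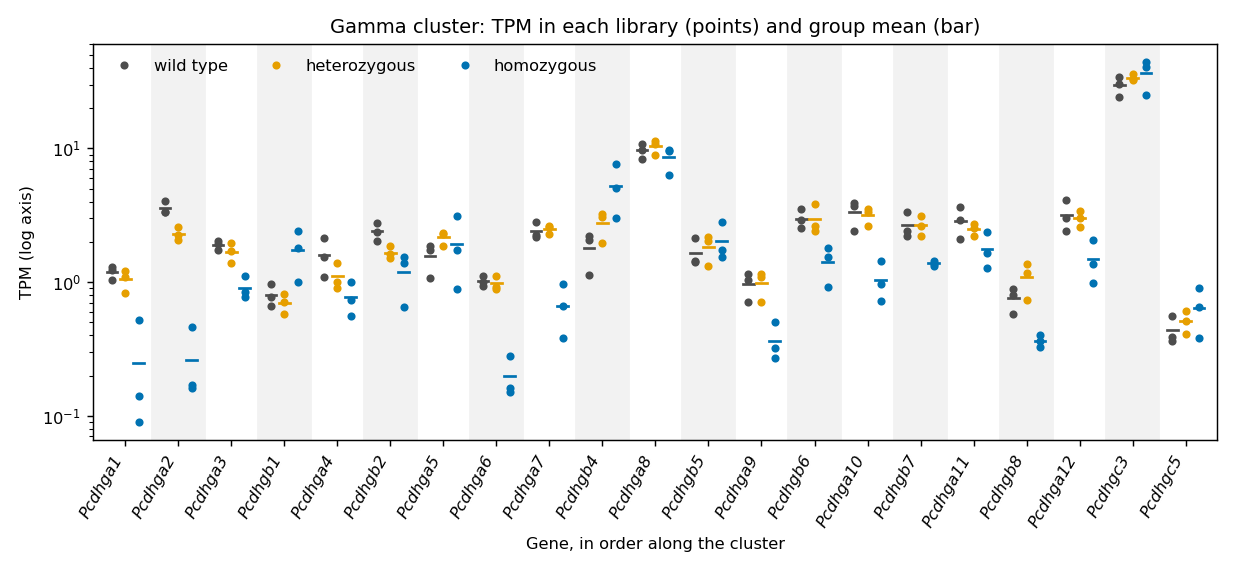
Level of each gamma member in each library, in TPM on a log axis, with the genes in their order along the array. Points are the 9 libraries coloured by genotype and bars are the means of 3 libraries. Pcdhga2 lies at 3.36 to 4.07 TPM in wild-type and at 0.16 to 0.46 TPM in homozygous hearts. Pcdhgb1 and Pcdhgb4 lie higher in homozygous than in wild-type hearts, and neither passed the test.

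The first comparison asked how the level of each member differed between homozygous and wild-type hearts. In the gamma array, 9 of 12 A-type and 4 of 7 B-type genes were lower in every homozygous library than in any wild-type library. So were 12 of the 21 beta genes, against 2.09% of all genes. Another 2 B-type genes of the gamma array were higher in every homozygous than in any wild-type library, against 15.5% of all genes. Pcdhga2, the second gene of the array, had the largest fitted log2(TPM + 1) change of the tested members and was the only one that passed the test. Several beta genes at low levels had larger ratios of group means or were listed at 0 in every homozygous library. Pcdhgc3 and Pcdhga8, the 2 most abundant members, overlapped between the groups in TPM, and after median-ratio scaling Pcdhga8 was lower without overlap.

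Pcdhga2 (chr18:37668953-37841870) stood at 3.36, 3.37 and 4.07 TPM (wild type), 2.24, 2.08 and 2.58 TPM (heterozygous) and 0.46, 0.16 and 0.17 TPM (homozygous). The 3 groups did not overlap with one another, with the heterozygous libraries in between. Wild-type and homozygous libraries without Xist stood at 3.37 and 4.07 TPM against 0.16 and 0.17 TPM. The pair with Xist, 1 library each, stood at 3.36 against 0.46 TPM. Since the groups did not overlap, such a split had to show the gap and is no separate test. The mean was 3.60 TPM ± 0.407 (SD, n = 3) in wild-type and 0.263 TPM ± 0.170 in homozygous hearts, a level 13.7-fold lower. On the log2(TPM + 1) scale, which understates changes of genes with low levels, Pcdhga2 fell by 1.87 (SE 0.21, limma adjusted p = 0.00453). It was called in 23 of 23 settings in which it was fitted, among them a fit with an Xist term, with adjusted p from 0.000834 to 0.0437. Of all 13682 genes tested, 0.146% were called lower in homozygous hearts and 0.19% higher, and of the 16 members tested 1 was called lower and 0 higher. At an unadjusted p under 0.05, limma gave 8 members lower and 1 higher, against 295 and 3131 of all genes tested. After median-ratio scaling 5 members were called, all lower (Pcdhga2, Pcdhga7, Pcdhgb6, Pcdhga10 and Pcdhgb7), among 240 genes called in all in place of 46. Without wild-type replicate 3, 4 members were called (Pcdhga2, Pcdhga7 and Pcdhga10 lower, Pcdhgb4 higher) among 2170 genes. Without homozygous replicate 3 it was 3 members (Pcdhga2 and Pcdhga7 lower, Pcdhgb4 higher) among 247 genes. The 16 tested members are those of the gamma array that averaged 1 TPM or more over the 9 libraries, so they are not all members, and the change itself bears on which of them passed that level. Pcdhgb1 passed it through the homozygous mean (1.74 TPM, where the wild-type mean was 0.803 and the heterozygous mean 0.703 TPM), while Pcdhga1 and Pcdhga6, with wild-type means of 1.19 and 1.02 TPM, missed it with homozygous means of 0.25 and 0.197 TPM.

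Over all 52 members, 25 were lower in every homozygous library than in any wild-type library and 2 were higher in every one. The same held for 2.09% of all 24571 genes in the lower direction and 15.5% in the higher direction. The 25 were made up of 12 beta and 13 gamma members, with no alpha member. Of the gamma members, 9 of 12 A-type, 4 of 7 B-type and 0 of 2 C-type genes were among them. Leaving libraries out can only add members to such a count. Wild-type replicate 1 had the highest sum of lung markers and homozygous replicate 3 that of thymus markers. Without these 2 libraries, 27 members were lower, against 5.68% of all genes. After median-ratio scaling, which removes the upward shift of most genes, all 25 were again lower and the count was 29, against 8.4% of all genes, and both higher members were again higher, against 7.58% of all genes. The 4 added members were Pcdhb14, Pcdhb16, Pcdhga8 and Pcdhga11.

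After Pcdhga2, the A-type genes Pcdhga10 and Pcdhga7 had the lowest fitted changes. Pcdhga10 was at 2.4, 3.74 and 3.94 TPM (wild type), 3.51, 2.63 and 3.33 TPM (heterozygous) and 0.97, 1.43 and 0.72 TPM (homozygous), 3.23-fold lower in the mean than in wild-type hearts. Its log2 change of −1.09 did not pass (SE 0.23, limma adjusted p = 0.0773), and it was called in 4 of 23 settings. Pcdhga7 was at 2.19, 2.84 and 2.24 TPM (wild type), 2.64, 2.31 and 2.59 TPM (heterozygous) and 0.66, 0.96 and 0.38 TPM (homozygous), which gave −1.05 on the log2 scale (SE 0.22, limma adjusted p = 0.0768). Both genes separated homozygous hearts from the other 2 groups without overlap, and their heterozygous and wild-type values overlapped.

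The A-type genes Pcdhga3, Pcdhga4 and Pcdhga12 and the B-type genes Pcdhgb2, Pcdhgb6 and Pcdhgb7 showed smaller differences of the same sign, none of which passed the test. Their log2 changes lay between −0.76 (Pcdhga12, limma adjusted p = 0.120) and −0.54 (Pcdhga4, limma adjusted p = 0.216). Pcdhga3, for example, was at 1.75 to 2.02 TPM (wild type) and 0.77 to 1.12 TPM (homozygous), and Pcdhgb7 at 2.21 to 3.36 TPM and 1.33 to 1.44 TPM. Pcdhga11 overlapped between the groups, at 2.1 to 3.62 TPM (wild type) and 1.28 to 2.38 TPM (homozygous) (log2 change −0.49, limma adjusted p = 0.208).

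The remaining A- and B-type genes of the gamma array had means under 1 TPM and did not enter the main test. Pcdhga1, the first gene of the array (chr18:37661793-37841873), was at 1.23, 1.03 and 1.3 TPM (wild type), 1.1, 1.21 and 0.83 TPM (heterozygous) and 0.52, 0.14 and 0.09 TPM (homozygous), 4.75-fold lower in the mean than in wild-type hearts. Pcdhga6 was at 1.01, 0.94 and 1.12 TPM, then 0.92, 0.89 and 1.12 TPM, then 0.16, 0.28 and 0.15 TPM in the same order of groups, 5.20-fold lower. Both genes sat close to 1 TPM in all wild-type and heterozygous libraries and well under it in all homozygous libraries. Pcdhga9 (0.71 to 1.14 TPM in wild-type, 0.27 to 0.5 TPM in homozygous hearts) and Pcdhgb8 (0.58 to 0.895 TPM, 0.325 to 0.405 TPM) were also lower without overlap. In a fit of every gene without the level filter, none of these 4 passed, the nearest being Pcdhga6 with a limma adjusted p of 0.0672.

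Pcdhgb4 and Pcdhgb1, both B-type genes, were the only 2 of the 52 members that were higher in every homozygous than in any wild-type library. The same held for 15.5% of all genes, and for 7.58% after median-ratio scaling, so such a rise was not particular to these members. Pcdhgb4 (chr18:37720369-37841870) was at 1.13, 2.06 and 2.2 TPM (wild type), 3.25, 1.96 and 3.07 TPM (heterozygous) and 5.08, 7.59 and 3.0 TPM (homozygous), 2.91-fold higher in the mean than in wild-type hearts. Its homozygous values overlapped the heterozygous ones, since homozygous replicate 3 was below heterozygous replicates 1 and 3. The log2 change of 1.11 did not pass (SE 0.30, limma adjusted p = 0.107). It did in 3 of 23 settings, among them the fits without wild-type replicate 3 (1.22) and without homozygous replicate 3 (1.39). Pcdhgb1 was at 0.66, 0.78 and 0.97 TPM (wild type), 0.82, 0.71 and 0.58 TPM (heterozygous) and 1.79, 2.41 and 1.01 TPM (homozygous). It was higher in homozygous hearts than in both other groups without overlap, at a log2 change of 0.57 against wild type (SE 0.27, limma adjusted p = 0.210). It entered the test only because its homozygous level raised its mean above 1 TPM.

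Pcdhga5, Pcdhgb5, Pcdhga8 and Pcdhgc3 overlapped between homozygous and wild-type hearts. Their log2 changes were 0.13, 0.18, −0.17 and 0.26, with SEs of 0.29, 0.24, 0.18 and 0.20 and limma adjusted p from 0.407 to 0.784. The C-type gene Pcdhgc5, the last of the array, was under 1 TPM in every library, at 0.36 to 0.56 TPM (wild type) and 0.38 to 0.9 TPM (homozygous), with overlap.

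Over the 16 tested members the median log2 change was −0.57, with a range of −1.87 to 1.11, while that of all tested genes was 0.23. Since the level filter depends in part on the change, as with Pcdhgb1, Pcdhga1 and Pcdhga6, this median describes the tested members alone. Fitted without a level filter, the median over all 52 members was −0.12 and that over all genes 0.11.

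**Figure D2:**
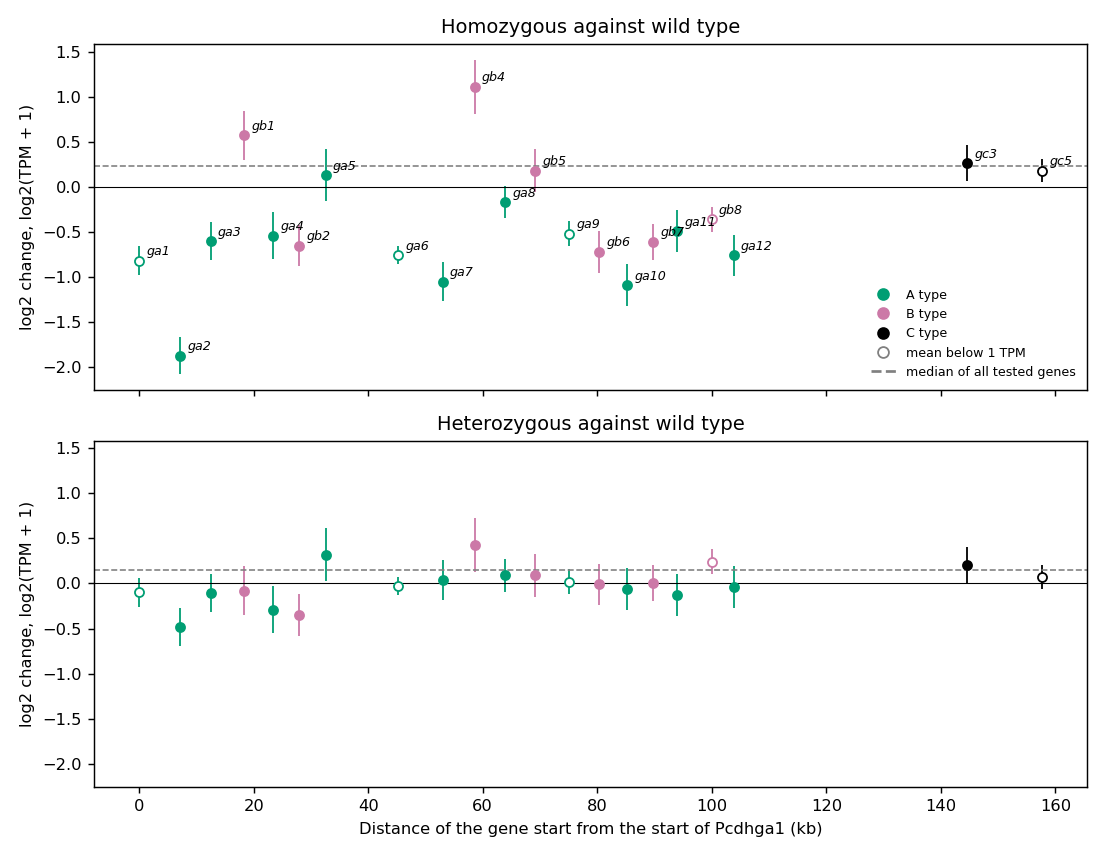
Change of each gamma member on the log2(TPM + 1) scale against the distance of its start from that of Pcdhga1, in kb, for homozygous against wild-type hearts (top) and heterozygous against wild-type hearts (bottom). Points are fitted changes coloured by type with bars of 1 SE, open points are members with a mean under 1 TPM (fitted without the level filter), labels leave out the prefix Pcdh, and the dashed line is the median of all tested genes. The lowest change in the top panel is that of Pcdhga2 at −1.87, 7.2 kb from the start, and the highest is that of Pcdhgb4 at 1.11, 58.6 kb from the start.

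Members that were lower and members that were not lay side by side along the array. Pcdhgb1 is the fourth gene, between Pcdhga3 and Pcdhga4, both of which were lower without overlap. The neighbours Pcdhgb4, Pcdhga8 and Pcdhgb5, the 10th to 12th genes here, were not lower without overlap in TPM, while Pcdhga7 before them and Pcdhga9 after them were. The mean of Pcdhga8 was 8.57 TPM in homozygous and 9.68 TPM in wild-type hearts, and after median-ratio scaling it was lower without overlap too.

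The make-up of the gamma array differed more between the genotypes than its sum. The gamma sum was 67.14, 75.27 and 87.41 TPM (wild type), 80.69, 74.83 and 84.34 TPM (heterozygous) and 75.73, 83.3 and 47.53 TPM (homozygous), so the groups overlapped (log2 ratio of homozygous to wild-type means −0.15). Homozygous replicate 3, the library with thymus markers, had the lowest gamma sum, and without it the log2 ratio was 0.05. The part of the thymus RNA in this was not tested.

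A-type genes made up 47.17%, 42.34% and 41.73% of the gamma sum in the wild-type libraries, 41.32%, 38.84% and 39.2% in the heterozygous libraries and 27.99%, 24.65% and 27.05% in the homozygous libraries. The 3 homozygous libraries lay close together and below the other 6, homozygous replicate 3 included. C-type genes, nearly all Pcdhgc3, made up 39.3% ± 2.23, 43.1% ± 1.24 and 54.2% ± 0.248 (SD, n = 3 each) in the same order, and B-type genes 16.9% ± 1.07, 17.1% ± 0.578 and 19.2% ± 1.86. The C-type share was higher in every homozygous library than in any other. In TPM, the A-type sum was 33.3 ± 2.72 in wild-type, 31.8 ± 2.39 in heterozygous and 18.2 ± 4.64 in homozygous hearts, without overlap between homozygous hearts and either other group. The B-type and C-type sums overlapped between all groups. The shares and sums of the types, like single values, depend on how reads of the shared exons were divided among the members. Shares of a sum are tied to one another, and with 3 libraries a group an exact permutation test could not go below a two-sided p of 0.1, so no test was made.

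The order of the genes by level also differed between the genotypes. Among the 21 gamma members Pcdhga2 ranked 3rd by mean TPM in wild-type, 10th in heterozygous and 19th in homozygous hearts. Pcdhgb4 went the other way, from 12th to 6th to 3rd. The level of Pcdhgb4 relative to that of Pcdhga2 was 0.336, 0.611 and 0.541 in the wild-type libraries, 1.45, 0.942 and 1.19 in the heterozygous libraries and 11.0, 47.4 and 17.6 in the homozygous libraries. The 3 groups did not overlap in this ratio, which is taken within a library and so is not touched by scaling, and the pair was chosen after its values were seen.

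**Figure D3:**
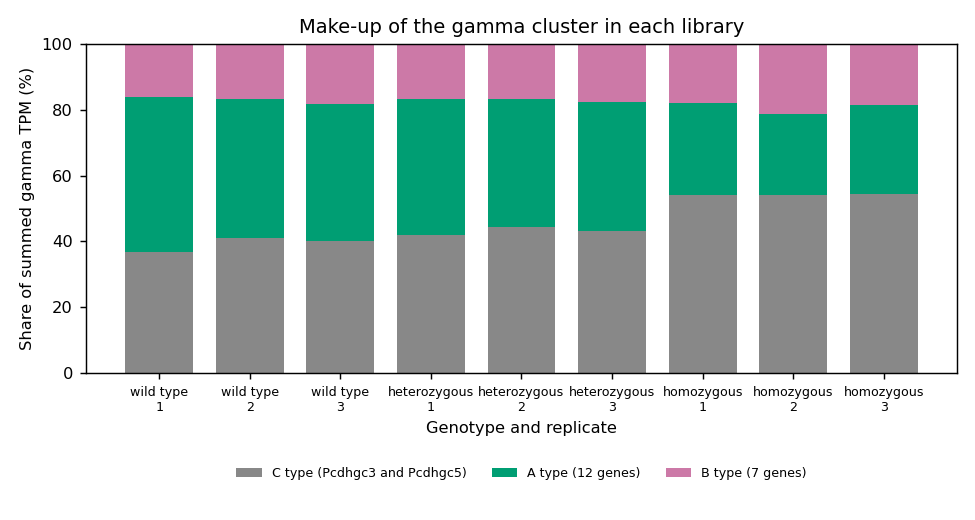
Share of the summed gamma TPM taken by C-type, A-type and B-type genes in each library, in percent, as bars stacked from 0 to 100. A-type genes take 41.73% to 47.17% in wild-type libraries and 24.65% to 27.99% in homozygous libraries.

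Beta genes were expressed at low levels, and many of them were lower still in homozygous hearts. Per library the beta sum was 6.16, 5.87 and 7.37 TPM (wild type), 6.42, 5.13 and 6.69 TPM (heterozygous) and 3.87, 5.45 and 2.15 TPM (homozygous). Each homozygous library lay below each wild-type library, with a log2 ratio of the means of −0.76, but homozygous replicate 2 overlapped the heterozygous libraries. The 3 homozygous libraries spread widely, and the log2 ratio ranged from −1.10 without homozygous replicate 2 to −0.47 without homozygous replicate 3.

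Pcdhb2, the first beta gene here (chr18:37294812-37297624), was at 0.17, 0.08 and 0.13 TPM (wild type) and 0.18, 0.02 and 0.26 TPM (heterozygous), and all 3 homozygous libraries listed it at 0. Pcdhb6 and Pcdhb12 were also listed at 0 in all homozygous libraries, where wild-type values were 0.08 to 0.11 TPM and 0.03 to 0.12 TPM. Pcdhb4 was at 0.47, 0.25 and 0.24 TPM (wild type), 0.31, 0.24 and 0.38 TPM (heterozygous) and 0, 0.04 and 0 TPM (homozygous). In all, 16 of the 63 beta values in homozygous libraries were listed at 0, against 2 of 63 in heterozygous and 0 of 63 in wild-type libraries. How often other genes of such low levels were listed at 0 in the same libraries is not given here. The number of reads behind these values is unknown, so a value of 0 says only that the gene is listed at 0.

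Pcdhb17, Pcdhb20 and Pcdhb22 had the highest mean levels among beta genes. Pcdhb17 was at 0.68, 0.68 and 1.2 TPM (wild type), 1.07, 1.04 and 0.88 TPM (heterozygous) and 0.4, 0.21 and 0.31 TPM (homozygous), 2.78-fold lower in the mean than in wild-type hearts. It separated homozygous hearts from both other groups, but did not pass in the fit without a level filter (log2 change −0.49, SE 0.14, limma adjusted p = 0.190). Pcdhb20 was at 0.77, 0.73 and 0.8 TPM (wild type), 0.46, 0.33 and 0.62 TPM (heterozygous) and 0.26, 0.46 and 0.1 TPM (homozygous) (log2 change −0.48, SE 0.12, limma adjusted p = 0.177). Its heterozygous and homozygous values overlapped, and both groups lay below wild type.

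Pcdhb22, the last gene of the array (chr18:37517871-37524479), was at 0.68 to 0.85 TPM (wild type), 0.28 to 0.98 TPM (heterozygous) and 0.39 to 1.14 TPM (homozygous). The groups overlapped (log2 change 0.04, SE 0.21, limma adjusted p = 0.965). Pcdhb18 and Pcdhb9 had higher means in homozygous than in wild-type hearts as well, with overlap. None of the 21 beta genes passed the test in any of the 3 comparisons when fitted without a level filter.

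**Figure D4:**
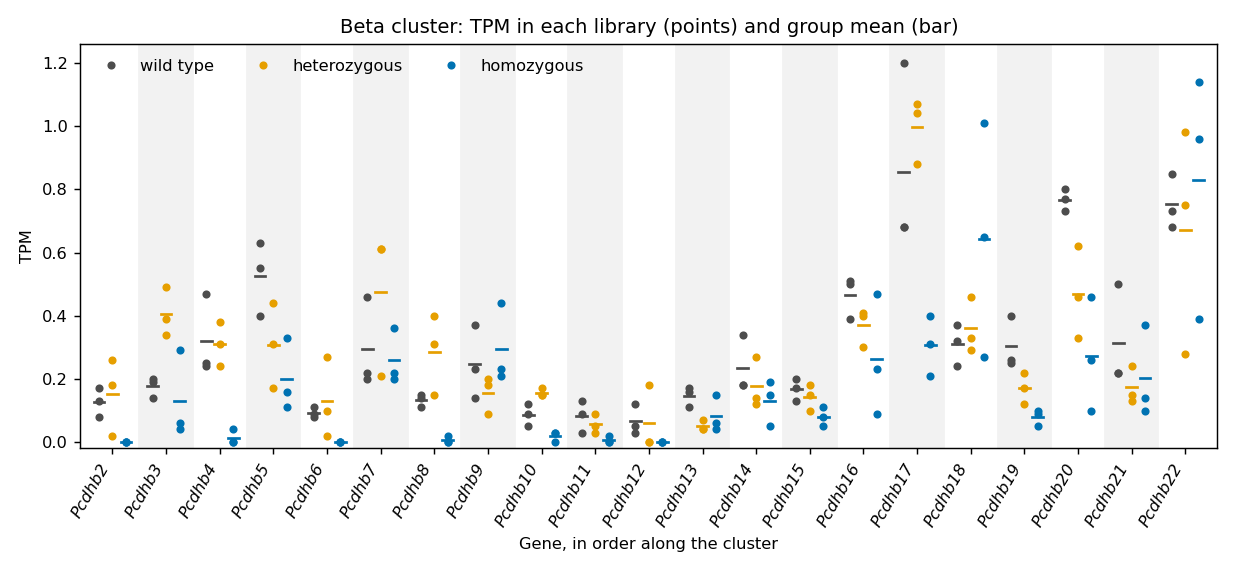
Level of each beta member in each library, in TPM on a linear axis, with the genes in their order along the array. Points are the 9 libraries coloured by genotype and bars are the means of 3 libraries. Pcdhb2, Pcdhb6 and Pcdhb12 are at 0 in the 3 homozygous libraries, while the values of Pcdhb22 overlap between the groups.

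Alpha genes were barely detected. Of 30 values per group, 17 in wild-type, 15 in heterozygous and 12 in homozygous hearts were listed at 0. The summed level was 0.275, 0.24 and 0.4 TPM (wild type), 0.59, 0.39 and 0.43 TPM (heterozygous) and 1.06, 0.72 and 0.4 TPM (homozygous), with overlap between all groups. The C-type gene Pcdhac2, the last of the array, was the highest alpha member and the only one above 0 in all 9 libraries, at 0.05 to 0.18 TPM (wild type), 0.12 to 0.21 TPM (heterozygous) and 0.17 to 0.37 TPM (homozygous) (log2 change 0.14 without a level filter, SE 0.08, limma adjusted p = 0.389). Pcdhac1, the other C-type gene, was above 0 in 1 library, at 0.05 TPM, and Pcdha1, the first of the array, also in 1 library, at 0.04 TPM. The next highest alpha members were Pcdha5, at 0 to 0.11 TPM (wild type) and 0.09 to 0.27 TPM (homozygous) (log2 change 0.17, SE 0.07, limma adjusted p = 0.300), and Pcdha4, at 0 to 0.06 TPM and 0.02 to 0.14 TPM (log2 change 0.07, SE 0.08, limma adjusted p = 0.637). No alpha gene separated any pair of groups without overlap.

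The second comparison set homozygous against heterozygous hearts, 2 copies of the edited allele against 1, and uses the same homozygous libraries as the first. Xist was above 1 TPM in every heterozygous library but only in replicate 1 of the homozygous ones, so genotype and Xist level were not fully separated. Of the 52 members 20 were lower in every homozygous library than in any heterozygous library, and 2, Pcdhb9 and Pcdhgb1, were higher. The same held for 3.01% of all genes in the lower direction and 8.54% in the higher direction. After median-ratio scaling all 20 were again lower and the count was 24, against 6.54% of all genes, while Pcdhgb1 alone was higher, against 5.74%. The 20 comprised 9 beta and 11 gamma members. None of the 16 tested members passed, 0 higher and 0 lower, against 0.00731% and 0.0365% of all genes called, while at an unadjusted p under 0.05 limma gave 7 members lower and 2 higher, against 317 and 661 of all genes tested. Pcdhga2 had the lowest log2 change, −1.39 (SE 0.21, limma adjusted p = 0.0741), and was called in 6 of 23 settings, followed by Pcdhga7 at −1.09 (limma adjusted p = 0.277) and Pcdhga10 at −1.04 (limma adjusted p = 0.357). Pcdhgb4 had a log2 change of 0.68 (limma adjusted p = 0.698), and Pcdhgc3 one of 0.07 (limma adjusted p = 0.959). The median over the tested members was −0.33 and that over all tested genes 0.08.

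The third comparison set heterozygous against wild-type hearts, and shares its wild-type libraries with the first and its heterozygous libraries with the second. Here too genotype and Xist level were not fully separated, since among wild-type libraries only replicate 1 had Xist above 1 TPM. Most members overlapped. Pcdhga2 and Pcdhgb2 of the gamma array and Pcdhb13, Pcdhb19 and Pcdhb20 of the beta array were lower in every heterozygous library than in any wild-type library, 5 of 52 against 1.16% of all genes. Pcdhb3 and Pcdhb10 were higher, 2 of 52 against 8.76% of all genes. After median-ratio scaling the lower count was 10, the 5 above included, against 5.04% of all genes, and the same 2 were higher, against 4.62%. None of the 16 tested members passed the test with limma, 0 higher and 0 lower, where 0% and 0.0146% of all tested genes were called. At an unadjusted p under 0.05, 1 member was lower (Pcdhga2) and 0 were higher, against 79 and 861 of all genes tested. Pcdhga2 was at 2.08 to 2.58 TPM in heterozygous and 3.36 to 4.07 TPM in wild-type hearts, which gave −0.48 on the log2 scale (SE 0.21, limma adjusted p = 0.672). Pcdhgb2 was at 1.52 to 1.86 TPM and 2.03 to 2.79 TPM (log2 change −0.35, SE 0.23, limma adjusted p = 0.672). Pcdhb19 was at 0.12 to 0.22 TPM against 0.25 to 0.4 TPM, and at 0.05 to 0.1 TPM in homozygous hearts, so that its 3 groups did not overlap, as with Pcdhga2. Pcdhga8, Pcdhgc3 and Pcdhgb4 had log2 changes of 0.09 (SE 0.18), 0.20 (SE 0.20) and 0.43 (SE 0.30), each with a limma adjusted p of at least 0.672. The median over the tested members was −0.02, against 0.15 for all tested genes.

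Genes that lie in or beside the arrays were examined next. The non-coding gene 3222401L13Rik ends 50 bases before the gamma array (chr18:37655451-37661742, plus strand). It was at 2.06, 1.85 and 2.93 TPM (wild type), 1.55, 1.63 and 1.28 TPM (heterozygous) and 0.8, 0.56 and 0.44 TPM (homozygous). The 3 groups did not overlap and lay in the same order as those of Pcdhga2, but the log2 change of −1.03 between homozygous and wild-type hearts did not pass (SE 0.23, limma adjusted p = 0.0884). Gm26672, a transcript on the opposite strand over the later variable exons of the gamma array, was at 1.05, 1.61 and 2.6 TPM (wild type), 2.69, 3.21 and 2.75 TPM (heterozygous) and 1.91, 1.03 and 0.69 TPM (homozygous), with overlap between homozygous and wild-type hearts (log2 change −0.32, limma adjusted p = 0.466) and its highest values in the 3 heterozygous libraries. BC037039, also on the opposite strand, over the start of Pcdhgc3, had a log2 change of −0.09 (limma adjusted p = 0.894). Whether the reads were counted by strand is not given in the sources used here, so reads of these antisense genes and of the protocadherins under them may not be told apart. The other gene models within the arrays that the table lists, Gm37165, Gm38182, Gm29994, Gm10544, Gm37446, Gm20162, Gm38225 and the read-through model Gm42416, were at most 0.88 TPM in any library.

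None of the protein-coding neighbours of the arrays was called. Zmat2, before the alpha array, differed by 0.09 on the log2 scale between homozygous and wild-type hearts (SE 0.11, limma adjusted p = 0.613). Taf7, between the beta and gamma arrays, differed by 0.03 (SE 0.12, limma adjusted p = 0.909), and Diaph1, which follows the gamma array after 1727 bases, by 0.32 (SE 0.17, limma adjusted p = 0.270). Slc25a2, between the beta and gamma arrays, was under 1 TPM, at 0.12 to 0.23 TPM (wild type) and 0 to 0.37 TPM (homozygous). Of a list of 16 genes on both sides of the arrays 14 were tested, and 0 passed in any of the 3 comparisons. Their median log2 change was 0.21 in homozygous against wild-type hearts, close to the 0.23 of all tested genes. The range was −1.03 (Cd14, with overlap between the groups) to 0.81 (Dnd1, higher in homozygous hearts without overlap).

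The wider family and the proteins that act on the arrays were counted in the same way. Ctcf itself was at 27.01, 28.95 and 34.29 TPM (wild type), 33.76, 33.15 and 38.65 TPM (heterozygous) and 38.89, 41.38 and 50.22 TPM (homozygous), which gave 0.52 on the log2 scale between homozygous and wild-type hearts (SE 0.14, limma adjusted p = 0.107). The homozygous values of Ctcf lay above those of both other groups without overlap, as did 15.5% of all genes against wild type and 8.54% against heterozygous hearts. The edited allele encodes a substitution, so the RNA level does not check the genotype. Among 12 unclustered protocadherins, which are single genes outside the 3 arrays (Pcdh1 and Pcdh12 among them also lie on chromosome 18, past the gamma array), 6 were tested and 0 passed in any comparison, with a median log2 change of 0.34 in homozygous against wild-type hearts. Of 14 genes for CTCF and the cohesin machinery of loop extrusion 0 passed in any comparison, with a median of 0.42. Of 12 genes for DNA methylation and heterochromatin proteins that silence the arrays, among them Dnmt3b, Smchd1 and Setdb1, 0 passed, with a median of 0.37. Of 17 signalling partners of the protocadherin tails, such as the kinases Ptk2 and Fyn and the WAVE actin complex, 0 passed, with a median of 0.23. The summed level of the CTCF and cohesin genes was 414.8 to 439.0 TPM in homozygous and 286.6 to 400.5 TPM in wild-type hearts, without overlap. That of the silencing genes was 389.5 to 411.9 TPM and 270.7 to 362.4 TPM, again without overlap. The sums of the unclustered protocadherins and of the signalling partners overlapped. The medians of these 4 lists were at or above the 0.23 of all tested genes, while that of the tested gamma members was below 0.

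Since the arrays are best known from neurons, markers of nerve cells were set beside these values. The summed level of 15 neuronal markers was 10.2 to 18.2 TPM (wild type), 10.1 to 17.98 TPM (heterozygous) and 14.0 to 16.9 TPM (homozygous), and that of 10 Schwann and neural crest markers 15.6 to 20.6 TPM, 17.8 to 23.6 TPM and 13.7 to 21.2 TPM. Both sums overlapped between the groups. The summed levels of endothelial, epicardial and fibroblast markers overlapped between homozygous and wild-type hearts as well. The summed level of 8 smooth muscle and pericyte markers was 593 to 714 TPM (wild type), 479 to 703 TPM (heterozygous) and 338 to 547 TPM (homozygous), and so was lower in homozygous than in wild-type hearts without overlap, with 0 of 8 markers called and none of them at 0 in all libraries. Its part in the protocadherin values was not tested.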

How the data were processed

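Heart RNA-seq libraries, 3 per genotype, were analysed from the gene-level table of TPM values that the authors deposited. According to the study's methods, the authors trimmed the reads with Trim Galore, aligned them to mm10 with STAR and quantified genes with RSEM. The annotation release and the handling of strand are not given in the sources used here. RSEM divides reads that fit several transcripts by estimation, so values of members with shared exons depend on one another, and TPM values sum to a fixed total in each library, so a change in very abundant genes shifts all others. Of 24597 symbols, 26 that a spreadsheet had turned into dates were left out (at most 0.0921% of TPM in a library).

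Genes that averaged 1 TPM or more over the 9 libraries (13682) were tested on log2(TPM + 1) with limma 3.58.1 in R 4.3.3 (lmFit, contrasts.fit and eBayes with a trend), all 9 libraries in 1 fit with genotype as the only term, two-sided, with Benjamini-Hochberg adjustment over all tested genes and a threshold of 0.05. Groups were called non-overlapping where each library of one lay beyond each library of the other, over all 24571 symbols. The fit was tested on simulated data, with changes placed only in genes whose mean log2(TPM + 1) was above 3. Most tested members, Pcdhga2 among them, lie below that level, so recovery of a change at their level was not tested. Named with values were members that averaged 1 TPM or more, the C-type members, the first and last member of each array and the 3 with the highest mean. So were called genes of the other lists, Ctcf, the flanking genes and overlapping gene models. Other members were named after their values were seen. The members and lists were chosen with earlier results of these data known. Alternatives covered the pseudocount, the level filter, scaling, the variance model, an Xist covariate, a replicate block and leaving out libraries. Coordinates are from GENCODE M21 (GRCm38, the same build as mm10). Sequence of the members was not used here beyond the share of common 31-base words.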

Additional observations from a re-analysis of the deposited data

How the results depend on the processing

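Depth is unknown, since the table held TPM only, and the tests rest on 3 libraries a group. Pcdhga2 was called lower in homozygous than in wild-type hearts under every setting in which it was fitted. In that comparison 1 clustered protocadherin gene was called. The count was 0 with a mean of at least 5 TPM (only 2 members were then tested, Pcdhga8 and Pcdhgc3, and Pcdhga2 was not), 5 after median-ratio scaling, all lower, among 240 genes called in place of 46, 2 after quantile normalization, 2 with eBayes without a trend, and 9 with arrayWeights (3 of them higher, among 5068 genes called in all). Leaving out 1 library gave 1 to 4, with 4 (1 of them higher, among 2170 genes) without wild-type replicate 3 and 3 (1 of them higher, among 247 genes) without homozygous replicate 3. The median log2 change of the tested members, −0.57, was −0.91 with a pseudocount of 0.1, −0.22 with a pseudocount of 5, −0.12 without a filter (52 members), 0.05 with a mean of at least 5 TPM (2 members) and −0.80 after quantile normalization, and −0.64 to −0.50 without 1 library. In homozygous against heterozygous hearts, 0 members were called, and 1 (Pcdhga2) with a pseudocount of 0.1, after median-ratio scaling, after rescaling without mitochondrial and haemoglobin genes, with eBayes without a trend and with robust eBayes, and 2 with arrayWeights. The median, −0.33, was −0.52 with a pseudocount of 0.1, −0.16 with a pseudocount of 5, −0.12 without a filter and −0.10 with a mean of at least 5 TPM, and −0.47 to −0.23 without 1 library. In heterozygous against wild-type hearts 0 were called under every setting, and the median, −0.02, was 0.14 with a mean of at least 5 TPM and −0.19 after quantile normalization, and −0.12 to 0.06 without 1 library. The filters change which members are fitted and the pseudocounts change the scale, so those medians are not like for like. Why the values moved was not tested for any setting.

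Without 1 library, the log2 ratio of homozygous to wild-type sums ranged from 0.88 to 1.54 for alpha, −1.10 to −0.47 for beta and −0.31 to 0.05 for gamma, where it turned positive without homozygous replicate 3. Deviations from the group means correlated at −0.031 to 0.359 between same-numbered libraries of different groups and at −0.314 to 0.121 between differently numbered ones. The highest values were those of wild-type and heterozygous replicates 1 (0.359) and 3 (0.297). Whether replicate numbers pair the samples is not known, and these values do not settle it. With a replicate block 1 member (Pcdhga2) was called in homozygous against wild-type hearts, among 17 genes in place of 46, and 0 in the other comparisons. Leaving out both wild-type replicate 1 and homozygous replicate 3, which was chosen after seeing the data, gave 1 call, Pcdhga2.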
